A study of Homo sapiens with 6 samples.

Results

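The genes described here are 10 human genes whose proteins protect or replicate chromosome ends: the 6 shelterin genes TERF1, TERF2, TERF2IP, TINF2, ACD and POT1, the 3 CST genes CTC1, STN1 and TEN1, and the helicase gene RTEL1. They were chosen by name, out of 19970 genes that code for proteins on the autosomes and chromosome X. Earlier results of these data were known when they were chosen. A gene counted as marked when the summit of a GABPA peak was at most 1 kb from the lower or the upper end of its RefSeq span. ChIP-seq with a GABPA antibody was done in A-375 cells, a long-established line from a human melanoma. The 3 conditions were parental cells, control cells with ROSA26 knocked out, and cells in which exon 2 of the GABP B1 subunit was knocked out before TERT was knocked in, which the sample title calls a TERT rescue. Each condition had 1 ChIP library and 1 input sample, and the 3 peak lists of the ChIP libraries were used. Both edited lines were grown from single sorted cells, so the B1 knockout, the TERT knock-in and the clone cannot be told apart, and no difference below has a replicate check or a p-value. Peak lists hold no expression values, so the melanoma identity of the cells was not checked here.

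GABP is a transcription factor made of GABPA, the member of the ETS family that binds DNA at a GGAA core, and a B subunit that carries the activation domain. Shelterin coats the double-stranded telomere repeat through TERF1 and TERF2 and the single-stranded overhang through POT1, with TINF2, ACD and TERF2IP joining or accompanying these proteins. CST is a complex of CTC1, STN1 and TEN1 that binds single-stranded DNA and helps DNA polymerase alpha fill in the lagging strand at chromosome ends. RTEL1 unwinds the telomere loop and other DNA structures during replication. TERT, supplied to the knockout cells, is the catalytic subunit of telomerase, which lengthens the telomeres that these proteins protect.

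GABPA peaks lay at 6 of the 10 genes in both controls and at 2 in the B1 knockout library. TERF2, TERF2IP, TINF2, STN1, TEN1 and RTEL1 were marked in both control lists, and TERF2IP and RTEL1 in the knockout list. TERF1, ACD, POT1 and CTC1 had no peak within reach in any library. By complex, 3 of 6 shelterin genes, 2 of 3 CST genes and RTEL1 were marked in each control, against 1 of 6, 0 of 3 and RTEL1 in the knockout. The background over all protein-coding genes was 15.5% marked (parental), 18.5% (ROSA26), 9.31% (knockout) and 15.3% (both controls). The member share of 60% in each control has an exact Clopper-Pearson 95% interval of 26.2 to 87.8%, and the share of 20% in the knockout one of 2.52 to 55.6%, both of which cover counting error only. The 10 genes are a chosen set and not a random draw, so these intervals do not test them against the background. Of the genes marked in both controls, 60.4% of all protein-coding genes and 2 of 6 members had a knockout peak. For the members the same kind of interval runs from 4.33 to 77.7%, which includes the 60.4%. The lists differ in length, and when only the 1660 strongest peaks of each list by −log10 p were used, TERF2IP and RTEL1 alone were marked in each of the 3 libraries. At that length 9.49% of all protein-coding genes were marked in parental, 9.46% in ROSA26 and 9.31% in knockout cells. By fold the TINF2 peak ranked 1622 of 3857 in the ROSA26 list, inside that length, and no cut by fold was made. When a peak counted only for the nearest gene end, RTEL1 was the 1 member marked in the knockout.

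The promoter sequences show what letters lie under these peaks. RefSeq windows of 300 bases on GRCh38.p14, from 250 before to 50 after an annotated transcript start, were found for 6 of the 10 genes. The first 4 windows shown hold the summits of the control peaks, and the last 2, POT1 and ACD, belong to genes with no peak. They are written 5′ to 3′ on the gene's own strand, and capitals mark CCGGAAG or its reverse complement CTTCCGG, a stretch around the ETS core.
RTEL1 (chr20:63658062-63658361, plus strand): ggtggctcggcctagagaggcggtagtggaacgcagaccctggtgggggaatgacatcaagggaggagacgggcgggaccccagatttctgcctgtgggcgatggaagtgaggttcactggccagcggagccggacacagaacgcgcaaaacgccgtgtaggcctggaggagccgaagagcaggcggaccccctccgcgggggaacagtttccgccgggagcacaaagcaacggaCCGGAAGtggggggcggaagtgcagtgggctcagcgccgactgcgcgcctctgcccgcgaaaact
TERF2IP (chr16:75647523-75647822, plus strand): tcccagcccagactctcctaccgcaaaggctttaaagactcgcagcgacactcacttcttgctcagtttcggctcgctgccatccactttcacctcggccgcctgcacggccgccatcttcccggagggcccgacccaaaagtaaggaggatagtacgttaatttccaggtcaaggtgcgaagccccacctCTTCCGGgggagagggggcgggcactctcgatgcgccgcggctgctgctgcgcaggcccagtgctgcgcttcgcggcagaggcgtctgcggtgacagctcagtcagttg
TINF2 (chr14:24242574-24242873, minus strand): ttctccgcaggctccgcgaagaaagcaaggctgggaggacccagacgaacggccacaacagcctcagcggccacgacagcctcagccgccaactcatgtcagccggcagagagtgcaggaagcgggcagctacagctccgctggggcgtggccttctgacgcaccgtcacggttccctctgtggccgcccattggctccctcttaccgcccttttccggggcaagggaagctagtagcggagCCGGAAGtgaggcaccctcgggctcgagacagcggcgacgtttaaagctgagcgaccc
STN1 (chr10:103918135-103918434, minus strand): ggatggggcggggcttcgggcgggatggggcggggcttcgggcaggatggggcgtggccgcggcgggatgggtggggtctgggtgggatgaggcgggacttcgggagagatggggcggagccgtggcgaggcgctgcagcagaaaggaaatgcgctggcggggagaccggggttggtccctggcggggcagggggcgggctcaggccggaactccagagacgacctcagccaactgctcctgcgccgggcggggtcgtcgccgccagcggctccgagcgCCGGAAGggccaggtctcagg
POT1 (chr7:124929776-124930075, minus strand): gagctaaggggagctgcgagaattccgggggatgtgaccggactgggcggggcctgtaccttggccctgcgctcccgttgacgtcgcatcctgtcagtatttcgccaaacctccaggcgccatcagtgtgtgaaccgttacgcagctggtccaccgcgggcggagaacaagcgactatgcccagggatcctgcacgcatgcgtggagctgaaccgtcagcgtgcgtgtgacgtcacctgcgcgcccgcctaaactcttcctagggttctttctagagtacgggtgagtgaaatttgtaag
ACD (chr16:67660211-67660510, minus strand): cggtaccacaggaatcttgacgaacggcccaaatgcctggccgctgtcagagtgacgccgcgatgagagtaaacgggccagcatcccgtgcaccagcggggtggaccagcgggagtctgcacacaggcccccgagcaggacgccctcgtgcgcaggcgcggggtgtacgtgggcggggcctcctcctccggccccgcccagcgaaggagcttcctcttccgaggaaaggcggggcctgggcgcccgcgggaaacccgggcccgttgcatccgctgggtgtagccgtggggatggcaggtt
CCGGAAG was found once in each of the 4 windows with a peak, and not in those of POT1 and ACD. Searched on both strands, it was present in 12.8% (12.4 to 13.3) of 22155 protein-coding windows, in 64.2% (62.3 to 66.1) of the 2428 with a parental summit inside, and in 5.63% (5.31 to 5.96) of those with no summit in any library. The shorter core CGGAA, which CCGGAAG contains, was present once each in POT1 and ACD as well, as it was in 41.0% of all protein-coding windows. The longer form ACCGGAAG was present in RTEL1 alone among the 6 genes, and in 2.73% of protein-coding windows. The 6 windows shown had 25 to 32 CpG pairs, and those at the outer starts of RTEL1 and TINF2 had 19 and 24, against a median of 21 over protein-coding windows. A match describes the letters of the window and is not shown to be a bound site, and no match says nothing of the factor.

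**Figure D1:**
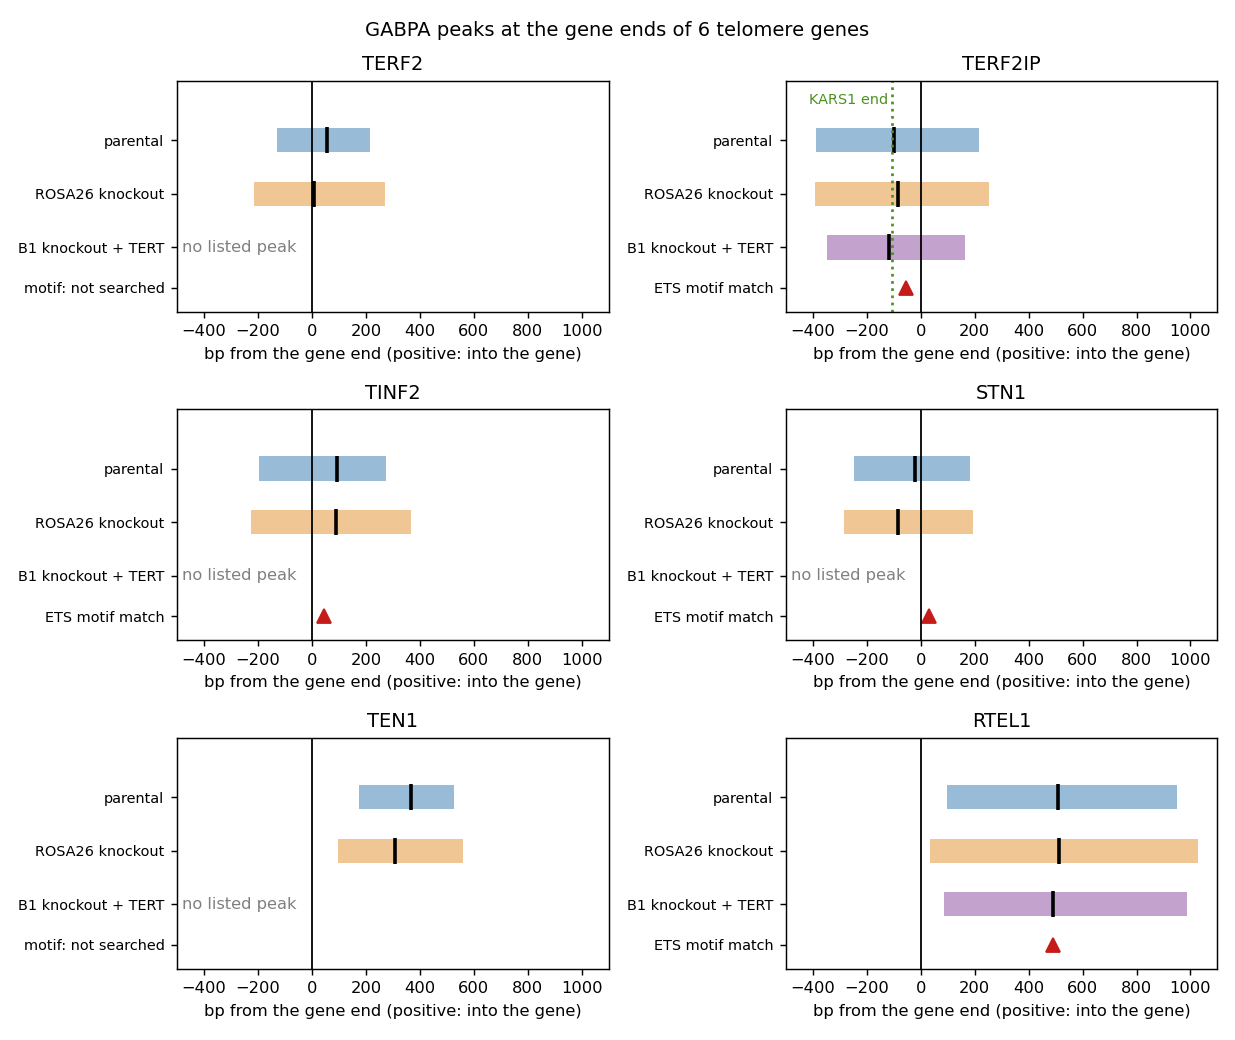
Peak extents (bars) and summits (black ticks) at the 6 genes marked in the controls, in bp from the gene end nearest the peak, with 0 at that end and positive values into the gene. Red triangles mark matches to the ETS motif in the promoter window, which was not searched for TERF2 and TEN1, and the green dotted line marks the end of KARS1; the RTEL1 peaks lie 491 to 511 bp inside the gene and the others within 366 bp of the end.

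TERF2IP, which encodes the shelterin protein RAP1 that accompanies TERF2, was the shelterin gene marked in all 3 libraries. The gene lies on chromosome 16 from 75647773 to 75657432, and its peak spanned 75647384 to 75647988 (parental), 75647380 to 75648028 (ROSA26) and 75647427 to 75647936 (knockout). The summits lay 100, 85 and 119 bp upstream of the transcript start, and they were 8, 23 and 11 bp from the end of KARS1, the lysyl-tRNA synthetase gene on the other side. The peak covers the ends of both genes and cannot be assigned to TERF2IP alone. Fold enrichment compares the summit with its local background and is taken from the authors' lists throughout. The TERF2IP peak had folds of 6.59 (parental), 9.997 (ROSA26) and 6.15 (knockout). In their own lists these values ranked 1459 of 3024, 953 of 3857 and 762 of 1660, so the peak stood near the middle of the parental and knockout lists. The reads covering the summit, recovered from fold and −log10 p as whole numbers, were 152, 202 and 94, over local backgrounds of 22.1, 19.3 and 14.4 reads. The CTTCCGG match lay 44, 29 and 63 bp from the 3 summits.

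TINF2, the shelterin hub that links the double-stranded and single-stranded binding proteins, had a peak in both controls and none in the knockout list. The gene is on chromosome 14 from 24239640 to 24242674 and is transcribed from its upper end, where the parental summit lay at 24242581 and the ROSA26 summit at 24242585. RefSeq gives 2 starts here, and the summits were 42 and 38 bp downstream of the inner start at 24242623 and 93 and 89 bp downstream of the outer. Folds were 5.32 and 7.06, with 87 and 116 reads at the summit over 15.4 and 15.6. In the parental library this local background equalled the common background of the whole library, 15.4 reads, which no other member peak did. Both peaks ranked in the middle of their lists, at 1824 of 3024 and 1622 of 3857. The nearest knockout summit was 7.29 kb outside the gene.

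TERF2, which folds the chromosome end into a loop, had weak peaks in the controls. The gene spans 69355567 to 69386007 on chromosome 16, and the summits lay 56 and 7 bp inside its upper end. The parental fold was 3.21 and the ROSA26 fold 3.12, with 66 reads over 19.8 and 85 reads over 26.6. These ranked 2792 of 3024 and 3306 of 3857, in the lower part of both lists. The nearest knockout summit was 15.9 kb away.

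TERF1, ACD and POT1 had no GABPA peak in reach. No summit lay inside the spans of the 3 genes in any library. TERF1, the other protein that binds the double-stranded repeat (chromosome 8, 73008864 to 73048123), had its nearest summits 692, 508 and 924 kb away in the parental, ROSA26 and knockout lists. POT1, which binds the single-stranded overhang (chromosome 7, 124822386 to 124929825), had its nearest summits 1073 kb away in both controls and 3414 kb away in the knockout. ACD, which joins POT1 to TINF2 and recruits telomerase (chromosome 16, 67657512 to 67660260), had a ROSA26 summit at 6.53 kb with a fold of 3.74, and its nearest parental and knockout summits at 176 and 182 kb. Absence from a list means that no peak passed the authors' calling limit, and does not show that GABPA was absent.

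Among the CST genes, STN1 and TEN1 had weak control peaks, and CTC1 had one just out of reach. STN1, the middle subunit of CST, lies on chromosome 10 from 103877569 to 103918184. Its summits were 22 and 83 bp upstream of the transcript start in the parental and ROSA26 libraries, with folds of 3.62 and 3.79. The same number of reads, 83, covered both summits, over local backgrounds of 22.1 and 21.2. The STN1 window has 2 CGGAA cores, and the one that is not part of CCGGAAG was the nearer to the summits, at 20 and 41 bp against 54 and 115 bp. The nearest knockout summit was 481 kb away.

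TEN1, the small subunit of CST, lies on chromosome 17 from 75979240 to 76000586, and its summits were 366 bp inside the lower end in the parental and 307 bp inside in the ROSA26 list. Folds were 3.198 and 4.23, and the reads were 67 over 20.2 and 101 over 23.1. Within their lists they ranked 2799 of 3024 and 2625 of 3857, so the parental peak was among the weakest listed. The nearest knockout summit was 279 kb away.

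CTC1, the large subunit (chromosome 17, 8224815 to 8248056), had its nearest control summits 1664 bp (parental) and 1690 bp (ROSA26) outside the lower end of its span. Their folds were 3.73 and 6.82, and the nearest knockout summit was 68.2 kb away. With a reach of 2 kb CTC1 counted as marked in both controls. The sources used gave no strand for CTC1, so whether its lower end is the start was not known here. Of the member peaks inside the 1 kb limit, those of RTEL1 lay farthest from an end, at 491 to 511 bp, and a reach of 500 bp kept RTEL1 in the knockout and not in the controls.

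**Figure D2:**
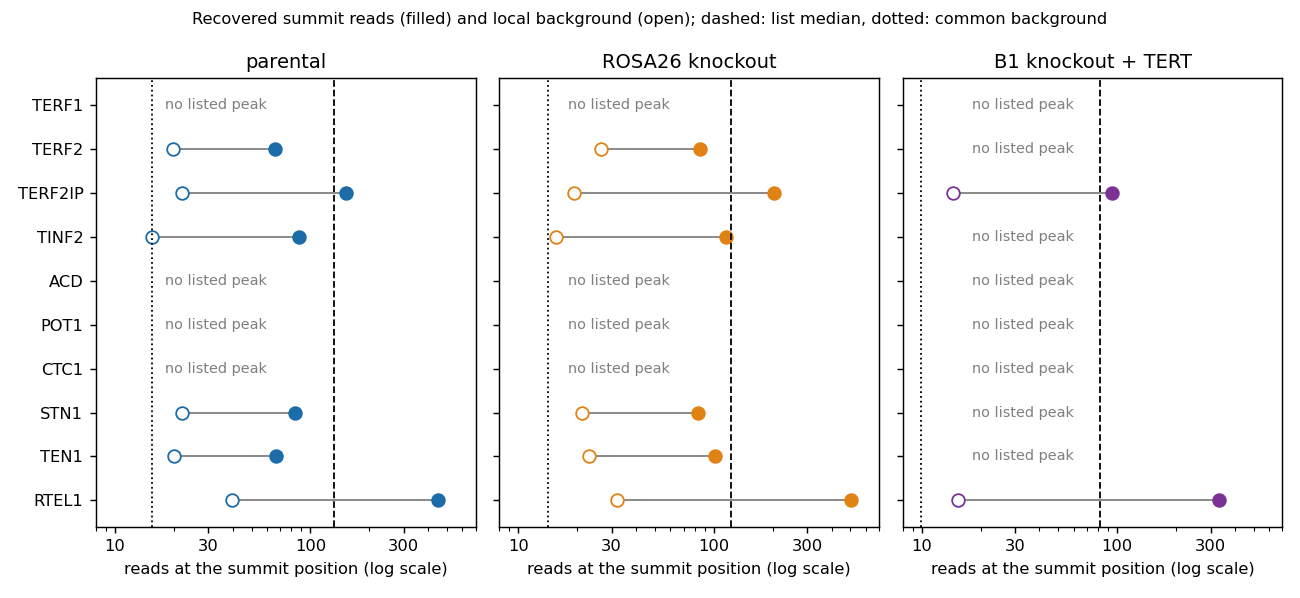
Reads covering the summit (filled points) and local background (open points) of each gene's peak in the 3 libraries, on a log scale, with the median summit of the whole list (dashed) and the library's common background (dotted). RTEL1 stands far to the right in each library (450, 503 and 333 reads), and TERF2, TINF2, STN1 and TEN1 lie below the list medians of 132 and 122 reads in the controls.

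RTEL1 had a peak in all 3 libraries, with summit reads that ranked 9th of the 3024 parental, 15th of the 3857 ROSA26 and 6th of the 1660 knockout peaks. The gene lies on chromosome 20 from 63657810 to 63696253. Its peak spanned 63657908 to 63658759 (parental), 63657844 to 63658838 (ROSA26) and 63657896 to 63658798 (knockout), widths of 852, 995 and 903 bp against list medians of 585, 636 and 513 bp. The summit did not lie at the end of the gene's span but at a second RefSeq start inside it, 63658312, which the window above surrounds. It was 7 and 9 bp downstream of that start in the controls and 11 bp upstream in the knockout. The window at the outer start, 63657810, held no summit and no CGGAA core.

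The RTEL1 window at the inner start holds 3 CGGAA cores, 1 of them within ACCGGAAG. The summits were 19, 21 and 1 bp from the centre of CCGGAAG, and 6, 8 and 12 bp from the core that follows it. At least 3 cores were present in 5.85% (5.55 to 6.17) of protein-coding windows and in 38.3% (36.3 to 40.2) of those with a parental summit inside. Over the 1559 protein-coding windows with both a parental summit and CCGGAAG, the median distance to the nearest match was 17 bp, with quartiles at 8 and 35 bp. The parental distance at RTEL1 lay between these quartiles. Those at TERF2IP (44 bp), TINF2 (47 bp) and STN1 (54 bp) lay above the upper one.

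The RTEL1 summit was covered by 450 parental, 503 ROSA26 and 333 knockout reads. The local background under the peak was 39.5, 32.1 and 15.3 reads. Folds were 11.1, 15.2 and 20.4, ranked 510 of 3024, 230 of 3857 and 10 of 1660. Since those lists differ in length, the peak was also ranked among the 1628 parental peaks overlapped by a peak of both other lists. There it stood 500th, 228th and 10th by fold, and 9th, 5th and 4th by summit reads. Its place by fold thus differed widely between the libraries, the controls included, and its place by reads was near the top in each. TERF2IP also changed place within this set, standing 1306th, 914th and 762nd by fold. By summit reads TERF2IP stood 1176th, 941st and 663rd, so a higher place in the knockout library was not particular to RTEL1.

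The local background at RTEL1 also differed between the libraries. Over the 1628 shared peaks the median fold differed too, at 9.12 (parental), 10.5 (ROSA26) and 5.86 (knockout). Divided by the common background of each library (15.4, 14.2 and 9.86 reads), the local background at RTEL1 came to 2.57 for parental, 2.26 for ROSA26 and 1.55 for knockout cells. Of the 1628 shared peaks 2, 34 and 379 had a higher ratio, and the medians were 1.28, 1.42 and 1.32. The local background at TERF2IP came to 1.43, 1.36 and 1.46 times the common one. Summit reads over the common background were 29.2, 35.4 and 33.8 at RTEL1, against medians of 12.6, 15.6 and 8.42 over the shared peaks. At TERF2IP the same ratio was 9.87, 14.2 and 9.53, below those medians in the controls and above in the knockout. The part of the local background in the RTEL1 fold of each library follows from how fold is computed. What sets that background, and why the ranks by fold differed between libraries, was not tested.

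**Figure D3:**
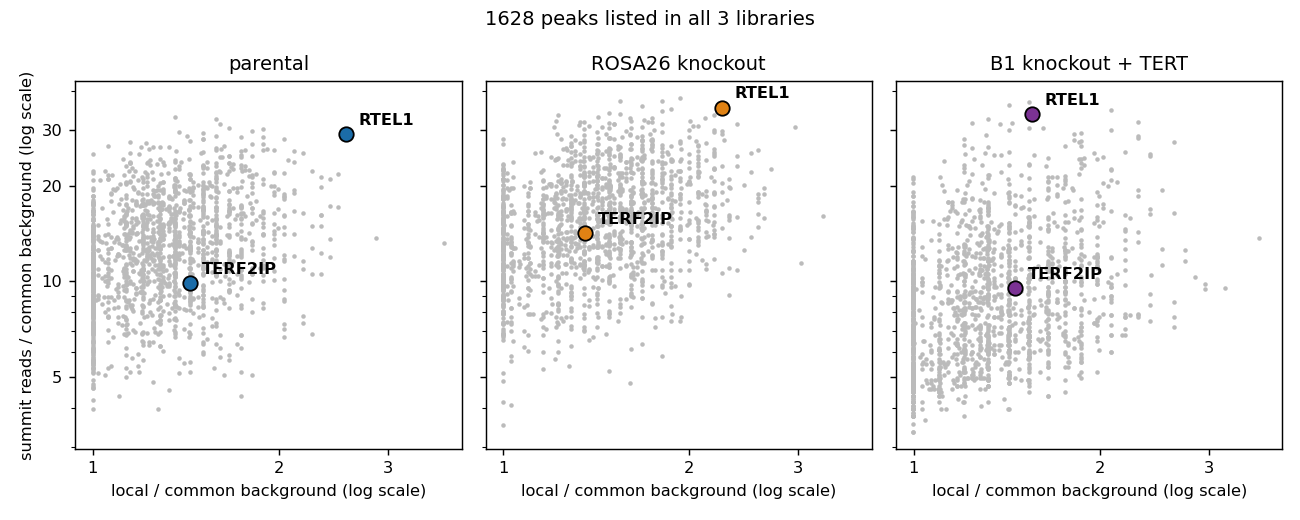
Each grey point is 1 of the 1628 peaks listed in all 3 libraries, plotted by local background (x axis) and summit reads (y axis), both divided by the library's common background and on log scales. RTEL1 is near the top in each panel and moves left from 2.57 in the parental to 1.55 in the B1 knockout library, while TERF2IP lies among the bulk of the peaks.

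Whether a member had a knockout peak went with the strength of its control peak, as it did over all genes. The 3062 protein-coding genes marked in both controls were divided into 10 equal groups by parental fold. TERF2 and TEN1 fell in the weakest group, in which 4.89% of genes (2.76 to 7.93) had a knockout peak, and STN1 in the second, with 6.54% (4.04 to 9.91). TINF2 fell in the fourth, with 47.7% (41.999 to 53.5), and TERF2IP in the fifth, with 60.5% (54.7 to 65.97). RTEL1 fell in the ninth, with 97.1% (94.5 to 98.6). The 4 genes without a knockout peak were thus those of the lower groups. The median fold of the 6 marked members was 4.47 (parental) and 5.65 (ROSA26), below the 7.03 and 7.10 of all marked genes. In the knockout list the 2 marked members had folds of 6.15 (TERF2IP) and 20.4 (RTEL1), against a median of 6.04 for all marked genes. These 2 were also the strongest members in the controls, with 6.59 and 11.1 in the parental and 9.997 and 15.2 in the ROSA26 list. The control and knockout medians thus cover different members.

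**Figure D4:**
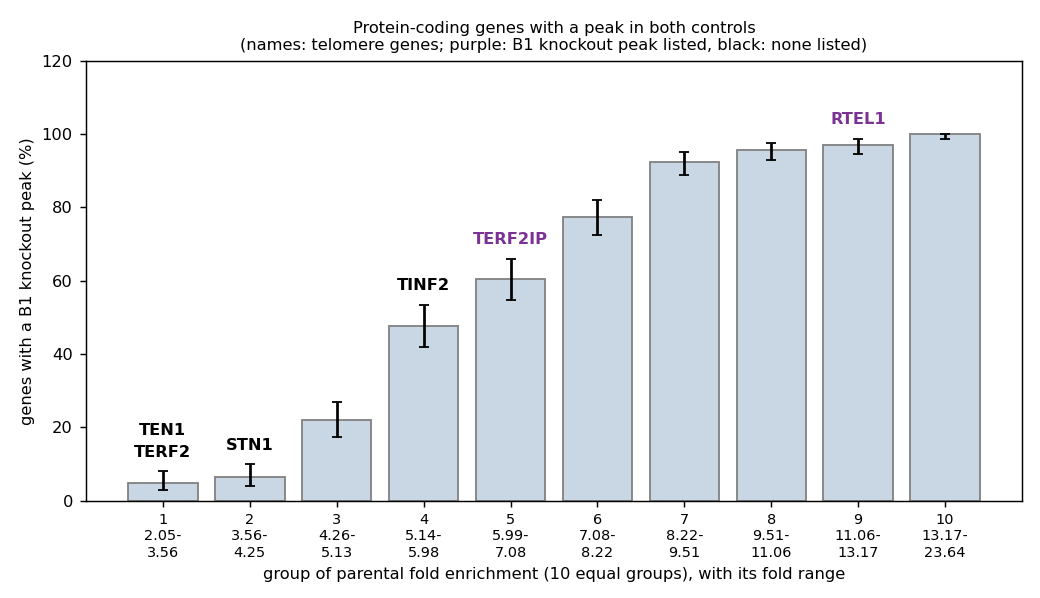
Share of protein-coding genes with a peak in both controls that also have a B1 knockout peak, by 10 equal groups of parental fold, with exact 95% intervals as error bars. The names show the group of each telomere gene: TERF2, TEN1, STN1 and TINF2 (black, no knockout peak) lie in groups 1, 2 and 4, TERF2IP and RTEL1 (purple, knockout peak) in groups 5 and 9.

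The knockout library had a lower common background, and the control peaks were scaled to it. This was done in the units of the lists, which are reads times 1 scale factor per library. In these units the common background was 13.25 (parental), 14.22 (ROSA26) and 9.11 (knockout). Pileup and local background were multiplied by 0.688 for the parental and 0.641 for the ROSA26 library, and −log10 p was computed again. The −log10 p of the knockout peaks started at 4.74, with a 10th percentile of 13.6 and a median of 34.2. TERF2 came to 10.1 and 12.6 from the parental and ROSA26 peaks, below that 10th percentile in both. STN1 came to 14.2 and 16.0, just above it, and TEN1 to 9.89 and 21.2, on either side of it. TINF2 came to 21.9 from the parental and 38.7 from the ROSA26 peak, higher than 32.3% and 55.6% of the knockout peaks. TINF2 was thus the member without a knockout peak whose scaled control values were highest. For the genes that were kept, the scaled values were 43.3 and 83.1 at TERF2IP (listed in the knockout with 40.3) and 178 and 257 at RTEL1 (listed with 286). The RTEL1 value in the knockout list was higher than both scaled control values, and the TERF2IP value lower than both. This scaling adjusts for the common background only. Over the 1628 shared peaks, median summit reads over common background were 12.6 (parental), 15.6 (ROSA26) and 8.42 (knockout). How many shared peaks had a knockout value below the scaled one was not counted, so neither gene is set apart by this comparison.

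Genes with the most similar ranks were picked by the distance between within-list percentiles of fold, over 3 lists for kept members and over the 2 control lists for the others. Nearest to RTEL1 were RPS21, a ribosomal protein gene, at 3.73 percentage points, and AP3S2, an adaptor complex gene, at 4.0045. Their folds were 11.8, 14.8 and 17.7 at RPS21 and 10.7, 17.1 and 15.3 at AP3S2. Nearest to TERF2IP were SAP30L (3.68) and GTF2F1 (5.55), a subunit gene of the general factor TFIIF. Among genes without a knockout peak, ERCC6 and TRMT10B were nearest to TINF2 (0.53 and 0.98), ALDH9A1 and HSPA8 to TERF2 (1.06 and 1.16), ZNF267 and WDFY2 to TEN1 (0.31 and 0.39), and ATPSCKMT and CCT5 to STN1 (0.95 each). ATPSCKMT and CCT5 had the same folds as each other (3.57 parental and 3.76 ROSA26), so they may stand for 1 peak counted for both genes. With 2 or 3 points per gene the likeness to a member is a description of peak rank only.

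Other genes that act at telomeres were marked too. Of 8 telomerase genes, 4 were marked in each control and 3 in the knockout. NOP10 (folds 8.11, 7.64 and 3.64), GAR1 (8.28, 10.1 and 4.58) and WRAP53 (3.20, 4.74 and 2.90) were marked in all 3, NHP2 (2.87 and 3.73) in the controls, and TERT, DKC1, NAF1 and the RNA gene TERC in none; these were named after their values were seen. NOP10, GAR1 and NHP2 belong to the H/ACA particle that holds the telomerase RNA, and WRAP53 encodes the factor that takes it to Cajal bodies. Of 40 accessory genes 15, 17 and 8 were marked, which is 37.5, 42.5 and 20% against the 15.5, 18.5 and 9.31% of all protein-coding genes. All 15 with a parental peak also had a ROSA26 peak, and 8 of them had a knockout peak. Over all protein-coding genes 3090 had a parental peak and 3062 a peak in both controls. Of those 3062 genes 60.4% had a knockout peak. Both gene lists, telomerase and accessory, were chosen with earlier results of these data known, so their shares are a description only.

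The strongest accessory genes with a knockout peak were the flap endonuclease gene FEN1 (folds 12.2, 16.3 and 8.12), the tankyrase gene TNKS (8.76, 11.3 and 6.96), whose product modifies TERF1, and the chaperone gene DAXX (8.46, 11.8 and 5.22). The strongest without one were XRCC5 (7.68 and 8.94), which encodes a Ku subunit, DCLRE1B (5.88 and 4.97), which encodes the nuclease Apollo that works with TERF2, and POLA1 (5.80 and 7.95), the catalytic subunit of the polymerase that CST assists. None of these folds reached that of RTEL1 in the knockout list, and FEN1 was above RTEL1 in both control lists. The FEN1 summits lay 264, 261 and 258 bp outside the gene. Neighbouring gene ends were not checked for the 48 other telomere genes, so their peaks cannot be assigned to the named gene alone. Over the whole 48-gene list, 19 genes were marked in both controls, against 15.3% of all protein-coding genes. Of these 19, 11 had a knockout peak, near the 60.4% over all genes marked in both controls.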

How the data were processed

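GABPA ChIP-seq of 3 A-375 conditions was used, with 1 peak list per ChIP sample. The 3 inputs were not analysed. Reads were processed with Bowtie2, SAMtools and MACS2 on hg38, per the submitters' processing notes. No version, threshold or role of the input is stated in the sources used. Per peak, the deposited lists give a fold enrichment (a ratio), the −log10 of p and of q, and a score that was not used. The authors' folds were ranked within a list only.

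The lists hold no read totals. Whole reads at each summit and the local background were solved from fold, (pileup + 1)/(background + 1), and −log10 p, a Poisson tail, with 1 scale factor per library (0.860 parental, 1 ROSA26, 0.924 knockout). All peaks of the 3 lists (3024, 3857 and 1660) were solved, and the solver was tested on simulated data. The single background value found at the largest number of peaks (571, 611 and 337) is called common. It grows with depth and fragment length together.

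Gene spans and promoter windows are RefSeq, GRCh38.p14, written 1-based. Strand came from the promoter table, which lacks TERF1, TERF2, CTC1 and TEN1. Intervals are exact Clopper-Pearson, 95%, and cover counting error only. The members and lists were chosen with earlier results of these data known. All members are named, as is KARS1, which shares a peak (1 other neighbour is not reported here), the 2 genes nearest in rank to each marked member, and, of other telomere genes, the 3 strongest by parental fold with and without a knockout peak. The 8 telomerase genes were named in addition, after their values were seen. Alternatives covered the reach, nearest ends, starts only, stricter lists, overlap and motif length. Python 3.11.15, numpy 2.4.6, scipy 1.17.1 and pandas 2.3.3 were used.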

Additional observations from a re-analysis of the deposited data

How the results depend on the processing

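The counts of marked genes were recomputed under 7 alternatives for each library, and the count kept in the knockout under 9. With lists cut to equal length by −log10 p, the members marked in the parental list, in the ROSA26 list and in both controls fell from 6 to 2 each. Fewer peaks were used, and the 2 with a knockout peak did not change in number. Within 500 bp 1 member of 5 in both controls had a knockout peak, because the RTEL1 summit lies near that limit. With the nearest gene end only, 1 member had a knockout peak and 1 was kept, since the TERF2IP peak went to KARS1. The share of all protein-coding genes marked within 500 bp was 14.4% parental, 17.0% ROSA26 and 8.74% knockout, and within 2 kb 16.6, 19.8 and 9.91%. The motif ACCGGAAG was found in 1 member, in place of 4 with CCGGAAG and 6 with CGGAA. The start-only count covers the 6 genes with a promoter window, of which 4 were marked in each control and 2 in the knockout. No share over all protein-coding genes is given for starts only, so these counts have no background beside them. No paired analysis was possible because each condition has 1 library. The common background was lowest in the knockout library, and scaled to it the members' control peaks had a −log10 p of at least 9.89. The knockout values started at 4.74, with a 10th percentile of 13.6. TERF2 in both controls and TEN1 in the parental list lay below that percentile. Why control peaks were missing from the knockout list was not tested.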
